A study of Mus musculus with 2 samples.

Results

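Somatostatin GABAergic neurons are inhibitory neurons that make the peptide somatostatin, encoded by Sst, beside the transmitter GABA. They were taken here by their transcripts from single nuclei of tissue described as the mouse ventral tegmental area (VTA). The VTA is a midbrain region of dopaminergic, GABAergic and glutamatergic neurons. Whether all nuclei came from the VTA, and whether both libraries sampled the same tissue, was not tested. A nucleus counted as a member with at least 500 UMIs (counted transcript molecules) and at least 1% of them from the pan-neuronal genes Snap25, Syt1, Meg3, Snhg11, Rbfox3 and Nefl. Gad1, Gad2 and Slc32a1, which make GABA and load it into vesicles, had to sum to at least 2 UMIs and 0.04% of UMIs, and the dopaminergic genes Slc6a3, Slc18a2, Ddc and Th to less than 0.1%. These conditions are called the GABAergic gate, and at least 1 Sst UMI completed the rule. Members were thus selected on their measured neuronal, GABAergic, dopaminergic and Sst counts, which are described below and not tested. Of 27850 barcodes in the series, 277 were members: 18 in the WT library and 259 in the CCI library.

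The series has 2 libraries, 1 per group, from adult mice. WT stands for wild type, and CCI for chronic constriction injury of the left sciatic nerve, a neuropathic pain model. The labels describe the right nerve as exposed without a ligature. Strain, sex, time after injury, number of pooled animals and sampled hemisphere are not given in the labels, and no treatment of the WT animals is stated. With 1 library per group no test between groups was possible, and nuclei of 1 library are not replicates, so every interval below is a 95% interval that covers counting error only. The series title concerns transmission from somatostatin GABAergic neurons of the VTA to dopaminergic neurons in neuropathic pain with depression.

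Somatostatin is an inhibitory neuropeptide, released with GABA and acting through receptors encoded by Sstr1 to Sstr5. Inhibitory neurons of the ventral midbrain arise largely from progenitors that use Gata2, Gata3, Tal1 and Pax5, whereas Dlx, Six3, Isl1 and Meis2 are known from inhibitory lineages of the forebrain. Transcription of Sst is the classical example of control by cyclic AMP, through a cyclic AMP response element (CRE) that the factor CREB binds in the promoter. The promoters of Sst and of a pair of genes whose transcripts went with it in the CCI library, Npy and Six3, are printed because Sst defines these nuclei and the other genes rank among the highest beside it. They run from 250 bases before to 50 bases after the first transcribed base, 5′ to 3′ on the strand of the gene, from RefSeq on GRCm38.p6. Capitals mark the CRE, TGACGTCA.
Sst, chr16:23890795-23891094, minus strand: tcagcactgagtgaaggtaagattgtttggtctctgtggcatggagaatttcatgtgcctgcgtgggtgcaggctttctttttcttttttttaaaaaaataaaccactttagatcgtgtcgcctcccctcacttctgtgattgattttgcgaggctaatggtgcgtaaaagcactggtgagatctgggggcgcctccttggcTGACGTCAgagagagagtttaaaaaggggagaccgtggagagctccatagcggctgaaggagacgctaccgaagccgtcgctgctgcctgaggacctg
Npy, chr6:49822460-49822759, plus strand: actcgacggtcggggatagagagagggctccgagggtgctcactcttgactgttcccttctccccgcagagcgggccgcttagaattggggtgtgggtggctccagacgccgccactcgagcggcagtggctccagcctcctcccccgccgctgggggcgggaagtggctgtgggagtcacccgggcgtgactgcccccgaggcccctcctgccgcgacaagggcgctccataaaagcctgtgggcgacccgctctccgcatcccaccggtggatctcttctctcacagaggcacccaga
Six3, chr17:85620584-85620883, plus strand: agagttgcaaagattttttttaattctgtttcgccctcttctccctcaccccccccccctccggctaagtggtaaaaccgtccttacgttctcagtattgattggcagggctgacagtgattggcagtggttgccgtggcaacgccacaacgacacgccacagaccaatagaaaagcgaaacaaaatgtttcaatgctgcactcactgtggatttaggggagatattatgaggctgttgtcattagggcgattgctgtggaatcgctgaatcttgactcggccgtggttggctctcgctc
The CRE of Sst starts 48 bases before the first transcribed base. Searched on both strands, TGACGTCA was found in 588 of 32851 RefSeq promoters of this length (1.79%) and not in those of Npy or Six3, and the shorter TGACG, which the CRE contains, in 20.8%. The homeodomain core TAATTA (5.29% of promoters) was in none of the 3, and the Sp1 box GGGCGG (35.7%) was in that of Npy. The Six3 start used lies inside the gene span given below, which begins at 85613608, and bases before that upstream end were not searched.

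The WT library held 14114 barcodes and 18581333 UMIs (median 975 UMIs per barcode), the CCI library 13736 barcodes and 68376220 UMIs (median 3652). A set of 54 barcode sequences occurred in both libraries, none of them a member in either. The members had a median of 2044.5 UMIs in WT and 6374 in CCI and summed to 40114 and 1913627 UMIs. Each was therefore compared within its own library with up to 2 nuclei of the same gate that had no Sst UMI and the nearest depth, 36 nuclei in WT (median 2042 UMIs) and 517 in CCI (median 6379). These are called Sst-free, which says only that no Sst UMI was counted. No member lacked a match.

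Sst (ENSMUSG00000004366, chromosome 16, 23889573 to 23890958, build mm10) was detected in a larger share of nuclei of this gate in CCI than in WT, by an amount that depended on the gate. The minimum of 2 GABAergic UMIs is a larger share of a shallower nucleus, so the gate asked for more in WT. The median share of GABAergic UMIs in members was 0.129% in WT and 0.0722% in CCI. As counted, 18 of 577 WT nuclei of the gate (3.12%, 1.86 to 4.89) and 259 of 1622 CCI nuclei (15.97%, 14.2 to 17.8) had at least 1 UMI. With every nucleus thinned to 1000 UMIs, and 38 WT nuclei and 1 CCI nucleus left out as shallower, the shares were 10 of 539 (1.86%, 0.893 to 3.39) and 103 of 1621 (6.35%, 5.22 to 7.65). The log2 ratio of the thinned shares, CCI over WT, was 1.78 (0.84 to 2.88), and that of the Sst level over the whole gate, 18.2 and 73.8 CPM (counts per 1000000 UMIs), was 2.02 (1.44 to 2.67). With a gate of at least 4 UMIs and 0.1% for the GABAergic genes the ratio of thinned shares fell to 0.53 (-0.97 to 2.50), from 4 of 55 WT and 30 of 285 CCI nuclei. With the gate itself applied to thinned counts it was 1.27 (-0.20 to 3.05). Both of these intervals include 0.

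Free RNA in droplets gives some Sst UMIs to nuclei that should lack the gene. Non-neuronal nuclei, with median depths of 745 and 2051 UMIs, carried Sst at 6.04 CPM (WT) and 13.4 CPM (CCI). Their thinned shares were 0.297% (0.081 to 0.759) and 1.48% (1.19 to 1.81). By CPM and by thinned share the gate stood above this level in both libraries. On both measures non-neuronal nuclei also stood higher in CCI than in WT, and whether the gate differed by more was not tested. If every nucleus of the gate carried Sst at the non-neuronal level and at its own depth, 7.89 of the 577 WT nuclei and 146 of the 1622 CCI nuclei would hold at least 1 Sst UMI, where 18 and 259 did. At least 2 UMIs would be held by 0.0653 and 8.38 nuclei, where 4 and 157 held them. These expected numbers take background Sst to grow with the depth of a nucleus, which was not tested. Members with a single UMI may carry no more than this background, and how many do was not determined. In WT the gate stood close to neurons outside it, which had 16.0 CPM and a thinned share of 1.27% (0.978 to 1.62). In CCI those other neurons had 30.6 CPM and 2.37% (1.98 to 2.80), below the gate.

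**Figure D1:**
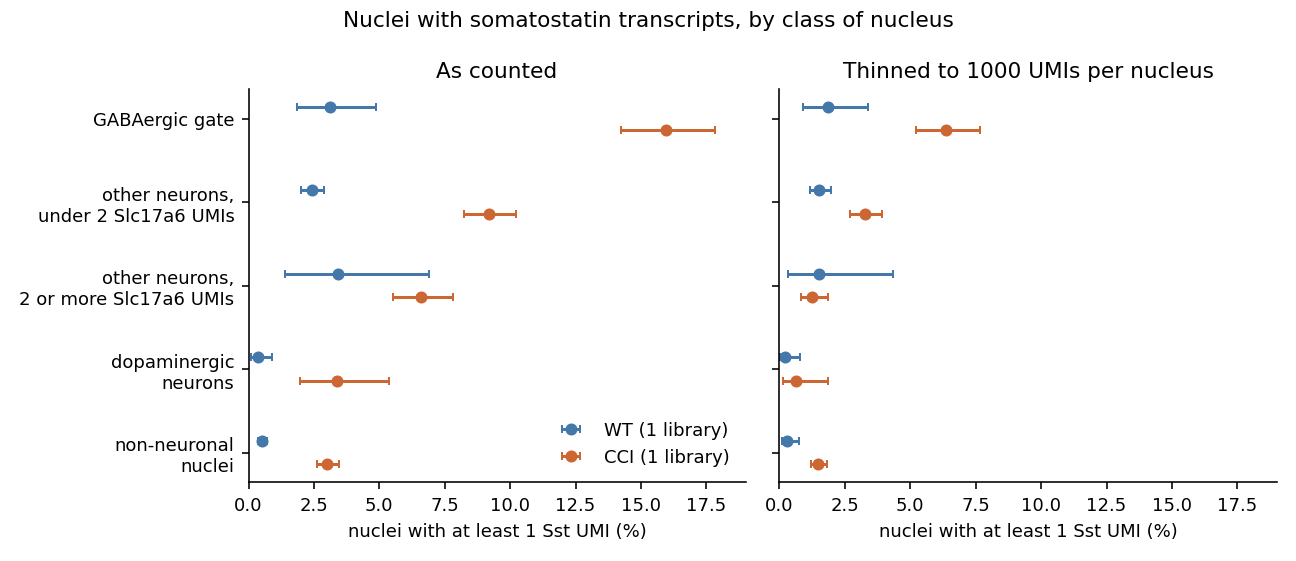
Share of nuclei with at least 1 Sst UMI (x axis, %) in 5 classes of nuclei (y axis), as counted at left and thinned to 1000 UMIs at right; points are single libraries, bars exact binomial 95% intervals, and dopaminergic neurons are those with at least 0.1% dopaminergic UMIs. The CCI gate stands at 15.97% and 6.35%, the WT gate at 3.12% and 1.86%.

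In CCI a minority of members carried most of the Sst UMIs. In WT, 14 of the 18 members had a single Sst UMI, 3 had 2 or 3, and 1 had 4, for 24 UMIs in all. In CCI, 102 of the 259 had a single UMI (39.4%), 78 had 2 or 3, and 79 had 4 or more, up to 34 in a nucleus. The last group held 65.0% of the 851 UMIs. By comparison, 193 non-neuronal CCI nuclei with Sst held 198 UMIs and 34 WT nuclei held 34, nearly always 1 each. A member with a single Sst UMI cannot be told apart from such a nucleus by its Sst count, and the leading CCI genes are also given by Sst level below.

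The gate sets the GABAergic genes, so their levels are a description. Gad2, the enzyme of synaptic GABA synthesis, was found in 244 of 259 CCI members (94.2%) and 15 of 18 WT members (83.3%). Gad1, the other synthesizing enzyme, was found in 193 (74.5%) and 9 (50%), and Slc32a1, the vesicular GABA transporter, in 159 (61.4%) and 6 (33.3%). Exactly 2 UMIs of these genes, the least the rule allows, were counted in 29 CCI and 10 WT members. Just outside the rule lay 86 CCI and 28 WT neurons with Sst and 1 such UMI, 103 and 1 with at least 2 such UMIs but less than 0.04%, and 1 CCI nucleus at 0.1% to 0.12% dopaminergic UMIs. The glutamatergic transporter gene Slc17a6 was at 28.7 CPM in CCI members and 26.1 CPM in Sst-free nuclei, with a UMI in 34 of 259 and 62 of 517. Detection of the GABAergic genes was required by the rule and is no check of the label, which in WT rests on few UMIs per nucleus.

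The CCI ranking took only genes with at least 40 UMIs in CCI and under 20 in WT, by the interval bound nearest to 0. Highest in members among these were the genes of a developmental transcription factor, a peptide and a calcium-binding protein, beside transporter, matrix and cytoskeletal genes. Outside Sst and the gate genes, 12958 genes were measured, meaning at least 20 UMIs over both sets. Of these 800 were over 1.5-fold higher in members (6.17%) and 1092 over 1.5-fold lower (8.43%), with the whole interval on that side for 411 and 396. Past 1.5-fold alone thus includes many genes whose counting interval reaches 0. The median log2 ratio over all measured genes was -0.03.

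Six3 (ENSMUSG00000038805, chromosome 17, 85613608 to 85629302), a homeodomain factor of forebrain development and of inhibitory striatal neurons, was at 44.9 CPM in CCI members and 6.85 CPM in Sst-free nuclei. Its UMIs numbered 86 in 47 of 259 members and 26 in 21 of 517 Sst-free nuclei, a log2 ratio of 2.71 (2.07 to 3.41). Its exons overlap those of Six3os1 and Gm28528 on the other strand, and whether the counting used strand is not given. In WT it had 0 UMIs in 18 members and 1 in 36 Sst-free nuclei. The WT members, with 40114 UMIs in all, measure a level of this size poorly.

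Npy (ENSMUSG00000029819, chromosome 6, 49822710 to 49829507), which encodes the inhibitory peptide neuropeptide Y, was at 29.8 CPM in CCI members and 5.003 CPM in Sst-free nuclei, with a UMI in 31 and 15 nuclei and a ratio of 2.57 (1.80 to 3.41). In WT it had 1 UMI in members and 0 in Sst-free nuclei. Pvalb (ENSMUSG00000005716, chromosome 15, 78191114 to 78206400), which encodes the calcium buffer parvalbumin, was at 45.5 and 9.48 CPM in CCI, in 55 members and 33 Sst-free nuclei (2.26, 1.69 to 2.86). Its WT counts were 1 and 2 UMIs. In myelin-rich non-neuronal CCI nuclei (median 2041 UMIs), which should lack them, Six3 stood at 2.03 CPM, Npy at 2.03 CPM and Pvalb at 4.29 CPM, below their level in members.

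The other genes ranked highest in CCI were Eepd1, which acts in DNA repair at stalled replication forks (82.0 and 14.7 CPM, ratio 2.48), Slc22a3, an organic cation transporter that takes up monoamines (2.67), Hmcn1, an extracellular matrix protein gene (2.22), the zinc finger gene Zbtb7c (1.99) and Fign, which encodes the microtubule-severing protein fidgetin (1.98, 1.79 to 2.18). Fign was also abundant in myelin-rich nuclei, at 266 CPM against 345 CPM in members and 87.2 CPM in Sst-free nuclei. The summed oligodendrocyte markers stood at 624 CPM in members and 548 CPM in Sst-free nuclei, and their part in the Fign result was not tested. Without nuclei of at least 0.3% glial transcripts the ratio of Fign was 2.02. Exons of Slc22a3 overlap Plg, and those of Hmcn1 overlap Gm20631, each on the other strand.

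Ranked lowest in CCI were Lsm11, a component of histone RNA processing (ratio -2.71, from 3 and 39 UMIs), Gal, which encodes the peptide galanin (-2.33, from 8 and 80 UMIs), and Pax5 (ENSMUSG00000014030, chromosome 4, 44524757 to 44710487). Pax5, a midbrain patterning factor, was at 7.84 CPM in members and 39.2 CPM in Sst-free nuclei, in 8 and 37 nuclei (-2.32, -3.20 to -1.56). In WT it had 2 UMIs in 1 member and 9 UMIs in 7 Sst-free nuclei (-1.17, -4.42 to 1.10). Bnc2 (-1.85), the brown fat long noncoding RNA gene Lncbate1 (-1.71), the glycine receptor gene Glra1 (-1.70), the fibrillin gene Fbn2 (-1.62) and the transcription factor gene Ebf1 (-1.29) followed. Glra1 was found in 25 of 259 members and 131 of 517 Sst-free nuclei. Exons of Pax5, Glra1 and Fbn2 overlap gene models on the other strand.

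**Figure D2:**
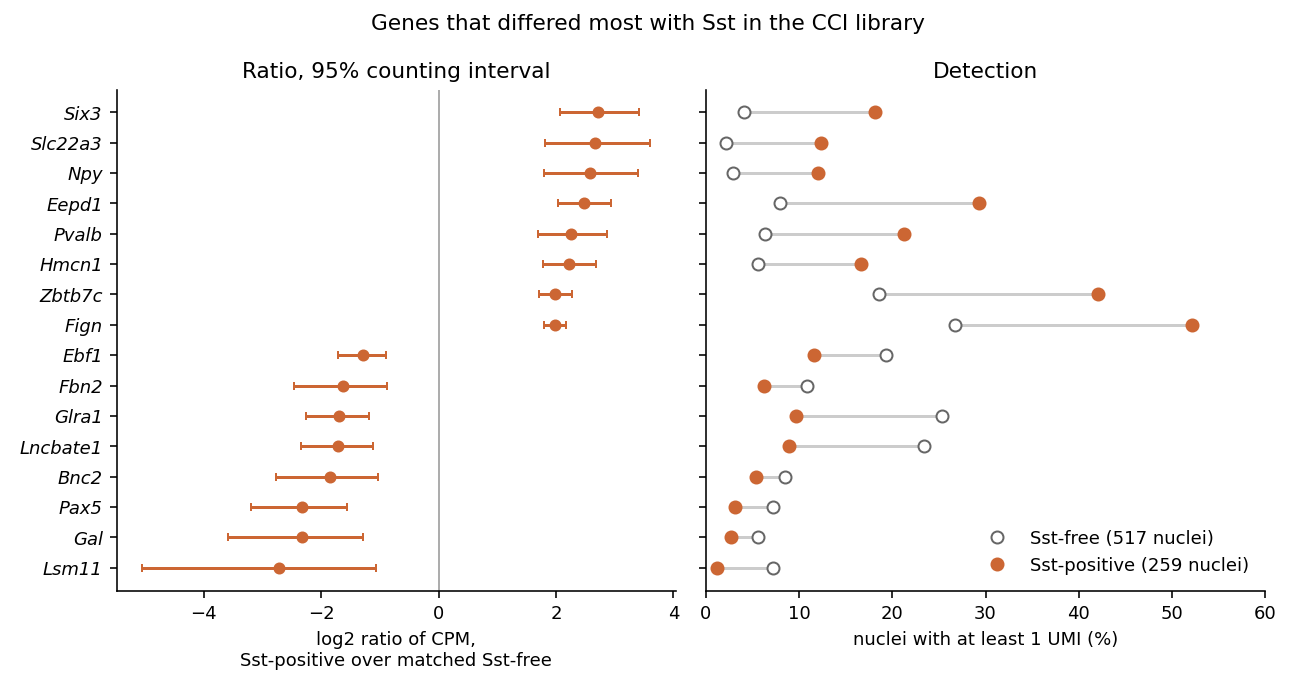
Left, log2 ratio of CPM in 259 Sst-positive over 517 matched Sst-free CCI nuclei with 95% counting intervals; right, the percentage of nuclei with at least 1 UMI in each set. The genes were ranked among those with at least 40 UMIs in CCI and under 20 in WT. Of the genes drawn Six3 has the highest ratio, 2.71, and Lsm11 the lowest, -2.71.

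The transcription factor lists differed in direction. The background of their counts is the share over all measured CCI genes, 6.17% over 1.5-fold higher and 8.43% lower. Of the 15 forebrain inhibitory lineage genes, 9 were measured in CCI, 6 over 1.5-fold higher in members (66.7%) and none lower. Their median ratio was 1.06 against -0.03 over all measured genes. Beside Six3 these included Isl1, a LIM homeodomain factor of striatal and hypothalamic neurons (44.4 and 12.9 CPM, 1.78, 1.26 to 2.32), Pax6 (47.0 and 16.6 CPM, interval 1.02 to 1.99), Dlx6 (1.16) and Meis2 (534 and 256 CPM, 1.06, 0.93 to 1.19). The long noncoding Dlx6os1, the member with the most UMIs after Meis2 in Sst-free nuclei, was level at 0.12 (-0.26 to 0.50), and Dlx1 was at -0.33. The forebrain pattern thus lay mainly in Six3, Isl1, Pax6 and Meis2. Whether the nuclei that carried these transcripts lay within the VTA was not tested. The Dlx genes were mixed, with Dlx6 higher from 18 and 16 UMIs (0.10 to 2.23), and Dlx1 (-1.16 to 0.44) and Dlx6os1 not. Sp9 was not higher either (-0.46, -1.60 to 0.58).

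Of the 12 midbrain inhibitory lineage genes, 8 were measured, 6 over 1.5-fold lower (75%) and 1 higher (12.5%), with a median of -1.17. Lower were En1 (-3.33, from 1 and 20 UMIs), Pax5 (-2.32), Zfpm1 (-1.82, from 3 and 21 UMIs), Gata2 (-1.18), Gata3 (22 and 97 UMIs, -1.15, -1.89 to -0.47) and Tal1 (-0.82). The intervals of Gata2 (-3.20 to 0.42) and Tal1 (-2.16 to 0.35) include 0. Gata3, which specifies midbrain GABAergic neurons, shares exons with 9230102O04Rik on its own strand. Pax7 was higher (1.49, from 24 and 17 UMIs), and Zfpm2, the most abundant of the list, was at 495 and 382 CPM (0.37, 0.25 to 0.49). Under the stricter gate the ratio of Pax7 turned to -0.77.

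Of 18 hypothalamic factors 5 were measured, and 3 were higher: Onecut3 (1.75, from 17 and 10 UMIs), Onecut2 (92 and 72 UMIs, 1.34, 0.88 to 1.81) and Sim1 (0.73, -0.64 to 2.06). Of 10 genes of cortical somatostatin interneurons 8 were measured, with 1 higher, the nitric oxide synthase gene Nos1 (0.66, 0.19 to 1.13), and 1 lower, Chodl (-0.89, -2.48 to 0.46). These cortical shares, 12.5% higher and 12.5% lower, rest on 1 gene each and lie near the background. Lhx6, the factor that specifies cortical somatostatin cells, had 0 UMIs in 259 members and 9 in Sst-free nuclei. Sox6 (-0.21) and Satb1 (0.07), which mature those cells, were within 1.5-fold over all members. By Sst level Sox6 was uneven, at 0.81 (0.31 to 1.31) in members with 1 Sst UMI. It stood at -0.79 (-1.55 to -0.09) with 2 or 3 Sst UMIs and at -1.44 (-2.28 to -0.68) with at least 4. Of its 106 member UMIs 19 came from 1 nucleus, without which the ratio over all members was -0.48. The ratios of Sim1 (-0.77) and Chodl (0.82) turned under the stricter gate, and Nos1 was at -0.020 with all nuclei thinned to 1000 UMIs.

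**Figure D3:**
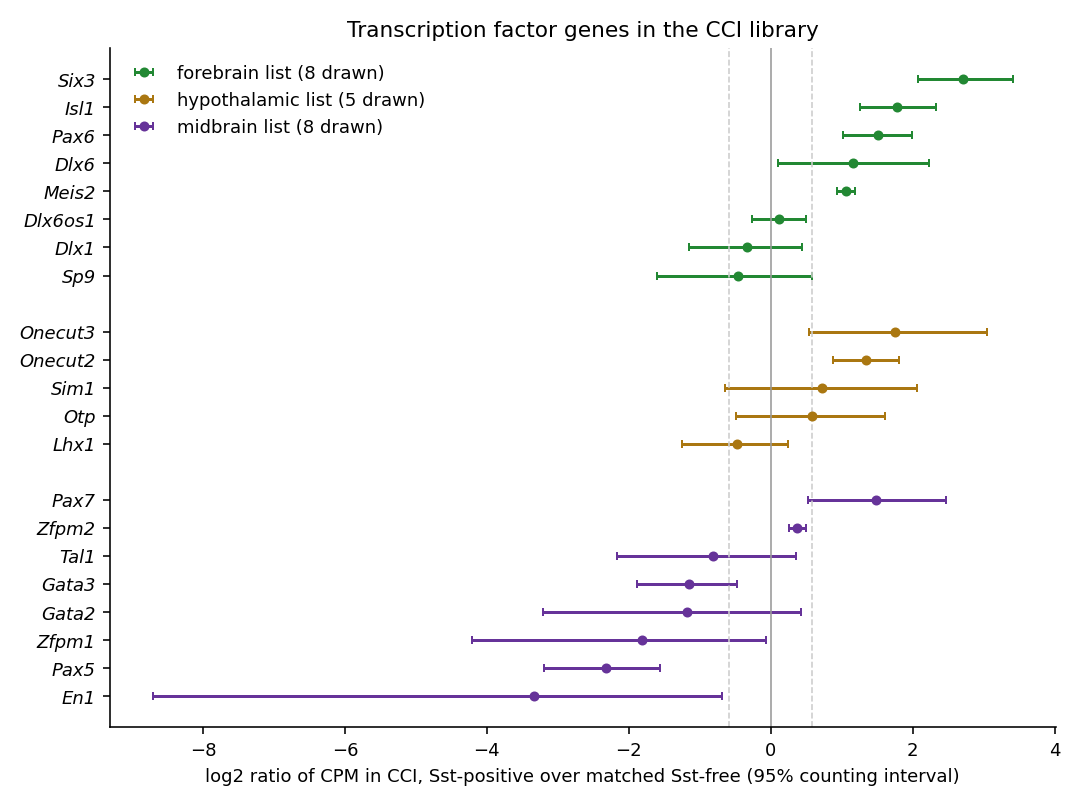
Log2 ratio of CPM, Sst-positive over matched Sst-free CCI nuclei (x axis), for measured genes of 3 lists of transcription factors (y axis), with 95% counting intervals; dashed lines mark 1.5-fold, and 1 further measured gene of the forebrain list is not drawn. Of the forebrain list 5 of the 8 genes drawn lie above the upper line, and of the midbrain list 6 of 8 below the lower.

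In WT, transcription factor counts were too low for such a split. Meis2 was level at 150 CPM in each set, from 6 and 12 UMIs, and 4 of its 6 member UMIs came from 1 nucleus. Zfpm2 was at 623 and 699 CPM (-0.17, -0.91 to 0.54). No WT member had a UMI of Six3, Isl1 or Pax6. A UMI of any midbrain factor was found in 11 of 18 WT members and 25 of 36 Sst-free nuclei, and of any forebrain factor other than Meis2 and Pax6 in 1 of 18 and 2 of 36.

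Forebrain and midbrain factors were found together in many CCI members as counted, and in fewer after thinning to 1000 UMIs. Both ways the share was larger in members than in the depth-matched Sst-free nuclei. A forebrain factor other than Meis2 and Pax6 was found in 134 of 259 members (51.7%, 45.5 to 58.0) and 195 of 517 Sst-free nuclei (37.7%, 33.5 to 42.1). Midbrain factors without a forebrain factor were found in 89 members (34.4%) and 226 Sst-free nuclei (43.7%), and both kinds in 100 members (38.6%) and 119 Sst-free nuclei (23.0%). Any midbrain factor was found in 73.0% of members and 66.7% of Sst-free nuclei. Thinned to 1000 UMIs the shares with both kinds were 7.72% (4.78 to 11.7) and 2.71% (1.49 to 4.50). Those with any forebrain factor were 15.4% (11.3 to 20.4) and 11.2% (8.63 to 14.3), intervals that overlap. The thinned share with midbrain factors alone turned round, to 28.2% and 25.1%, and any midbrain factor stood at 35.9% and 27.9%. Zfpm2, found in 170 of 259 members, makes up much of the midbrain count. Of the 47 members with Six3, 0 had a UMI of Gata3 or Pax5, which 10 and 8 of all 259 members had.

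Six3, Isl1, Npy and Pvalb met in the same CCI nuclei. Of 31 members with Npy, 23 also had Pvalb (74.2%), against 21.2% of all members. Of 47 members with Six3, 27 had Pvalb, 23 had Isl1 and 17 had Npy, and of 59 members with Isl1, 26 had Pvalb. The pairs are descriptions, since deeper nuclei show more genes at once: the 41 nuclei of the gate with Six3 and Pvalb had a median of 8279 UMIs against 6297 over the gate.

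Read the other way, Sst was more frequent in CCI gate nuclei with these transcripts. This restates how they were chosen, since they were named for their level in members. The sets also differ in depth, with a median of 8575 UMIs for Six3 and Npy and 6102.5 for none of the 4 genes. Of the 1622 CCI nuclei of the gate 15.97% had Sst, but of the 29 with Npy and Pvalb 23 did (79.3%, 60.3 to 92.0), and of the 23 with Six3 and Npy 17 did (73.9%, 51.6 to 89.8). Six3 alone gave 47 of 112 (41.96%, 32.7 to 51.7), Npy 31 of 62 (50%), Pvalb 55 of 142 (38.7%) and Isl1 59 of 162 (36.4%). Of 1278 nuclei with none of the 4 genes 156 had Sst (12.2%, 10.5 to 14.1), of 151 with Gata3 10 (6.62%, 3.22 to 11.8), and of 102 with Pax5 8 (7.84%). The majority of members, 156 of 259, thus had none of the 4. In WT, Sst was found in 0 of 10 gate nuclei with Six3, 0 of 3 with Isl1, 1 of 21 with Pvalb and 1 of 4 with Npy.

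**Figure D4:**
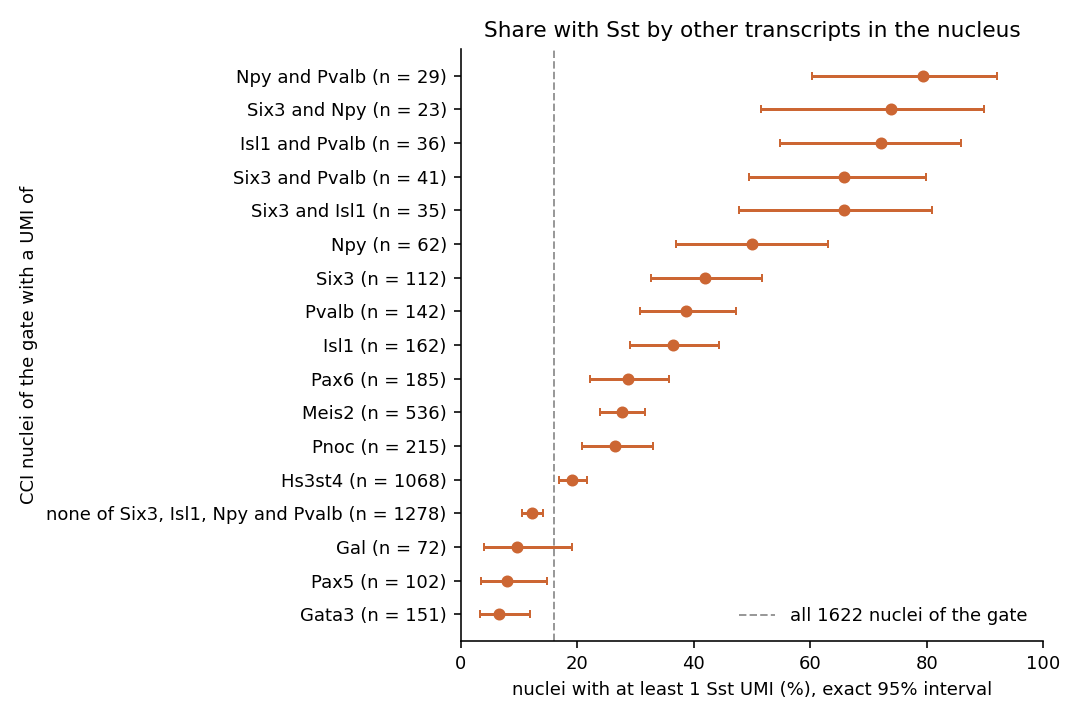
Share of CCI gate nuclei with at least 1 Sst UMI (x axis, %), among nuclei with a UMI of the genes named on the y axis, with exact 95% intervals; the dashed line is the share over all 1622 nuclei. Nuclei with Npy and Pvalb reach 79.3%, nuclei with Gata3 6.62%. The genes were named from these same nuclei, and the sets differ in depth.

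Six3, Npy, Pvalb and Pax5 stood apart in CCI nuclei with low and with high Sst. Members with 1, with 2 or 3 and with at least 4 Sst UMIs were each set against their own matched nuclei. The genes were named from these same members, so the split describes them and is no separate check of members with a single UMI. Six3 stood at 2.14, 3.62 and 2.37 in this order, Npy at 2.78, 2.22 and 3.32, Pvalb at 2.04, 2.47 and 2.22, and Pax5 at -2.67, -1.98 and -2.59. Counts were small, with 4, 8 and 3 member UMIs for Pax5 and 14, 28 and 15 for Npy. With a single Sst UMI the intervals were 0.87 to 3.55 (Six3), 1.11 to 4.84 (Npy), 0.94 to 3.22 (Pvalb) and -4.60 to -1.22 (Pax5). Some abundant genes were nearer to level in nuclei with a single UMI: Meis2 stood at 0.51, 1.75 and 0.97, Fign at 1.34, 2.61 and 1.90, and Hs3st4, which encodes a heparan sulfate sulfotransferase, at 1.34, 1.97 and 1.92. Zfp804b (0.75, 0.38 and 0.41) and Kirrel3 (0.68, 0.44 and 0.59) were not. Pnoc, the precursor of nociceptin, stood at -0.26 (-1.09 to 0.52), 0.63 (-0.26 to 1.51) and 1.40 (0.73 to 2.09). It was found in 15 of 102, 15 of 78 and 27 of 79 nuclei, so its higher level in members lay mainly in nuclei with at least 4 Sst UMIs.

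Of 26 neuropeptide precursor genes other than Sst 14 were measured in CCI, 4 over 1.5-fold higher (28.6%) and 3 lower (21.4%), against 6.17% and 8.43% of all measured genes, which are the background of the list counts that follow. Pnoc was at 44.9 and 28.4 CPM (0.66, 0.23 to 1.08), with a UMI in 57 members. Penk, the enkephalin precursor, had 56 UMIs in members and 72 in Sst-free nuclei (0.63, 0.10 to 1.15), but 14 of the 56 came from 1 nucleus, without which the ratio was 0.22. It had 0 UMIs in the members with 2 or 3 Sst UMIs, and under the stricter gate its ratio turned to -2.88, from 2 and 26 UMIs. Pmch (0.99) also rested on 1 nucleus, with 12 of 22 UMIs, and turned to -0.58 without depth matching. Lower were Gal, Hcrt (-1.85, from 6 and 43 UMIs, the latter in 5 nuclei) and Tac2 (-1.08). Tac1 (-0.23), Cck (-0.26) and Nts (-0.11) were within 1.5-fold. Cort, the close relative of Sst, had 0 UMIs in members and 1 in Sst-free nuclei. Of the somatostatin receptor genes only Sstr2 was measured, at 0.30 (-0.82 to 1.36). In WT, Pmch and Hcrt had 0 UMIs in members and in Sst-free nuclei. The WT depth measures such low levels poorly, and whether the libraries sampled the same tissue was not tested.

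Among calcium-binding protein genes other than Pvalb, Calb2 (-0.86, -1.61 to -0.16) and Necab1 (-0.59) were lower in CCI members and Calb1 was level (-0.05). Of 14 measured GABA receptor genes 2 were over 1.5-fold lower (14.3%) and none higher, among them Gabrb2 (257 and 457 CPM, -0.83, -0.98 to -0.68), which encodes a subunit of the most common synaptic receptor. Gabrb2 was also lower in WT, at -1.19 (-2.28 to -0.23). Gabra3 was at 0.51 (0.31 to 0.71) in CCI.

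Of 22 glutamate receptor genes 3 were higher (13.6%) and none lower in CCI members: the NMDA receptor subunit gene Grin2c (20.9 and 4.48 CPM, 2.22), the metabotropic receptor gene Grm3 (524 and 213 CPM, 1.30, 1.17 to 1.44) and the kainate receptor gene Grik3 (0.70). Of 33 measured receptor genes for peptides, monoamines, acetylcholine and steroids 9 were lower (27.3%) and 2 higher (6.06%), the latter share near the background. Lower were the dopamine receptor gene Drd2 (13 and 75 UMIs, -1.54, -2.51 to -0.68), Npy1r (-1.33), Cckbr (-1.16), Hcrtr2 (-1.04), Tacr1 (-1.01), Htr1a (-1.01), Htr7 (-0.93), Htr1b (-0.87) and Npy5r (-0.60), and higher were Tacr3 (1.08) and Adra1b (0.95). The counting intervals of Cckbr (-2.59 to 0.05), Htr1a (-2.78 to 0.45), Htr1b (-1.99 to 0.12) and Npy5r (-1.96 to 0.61) include 0. The opioid receptor gene Oprm1 was level at 0.02 (-0.27 to 0.31).

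Ion channel genes were mostly within 1.5-fold. Of 26 potassium channel genes 3 were higher (11.5%), Kcnip1 (0.76), Kcnma1 (1663 and 1005 CPM, 0.73) and Kcnj9 (0.70), and 2 lower (7.69%, near the background), Kcnip4 (2751 and 4572 CPM, -0.73, -0.78 to -0.69) and Kcnd3 (-0.67). Kcnip4 encodes a partner of the Kcnd channels. Of 24 sodium, calcium and pacemaker channel genes 3 were higher (12.5%), Cacna2d3 (0.95), Scn3a (0.71) and Cacna1i (0.61). Only Scn4b was lower (4.17%, below the background), at -0.90 (-2.35 to 0.34) and at 0.82 under the stricter gate. Of 30 adhesion genes Cdh13 was higher (937 and 462 CPM, 1.02), and Cntnap5a (-0.76), Cdh18 (-0.76) and Cdh12 (-0.68) were lower. The adhesion shares, 3.33% higher and 10% lower, lie near or below the background. Of 29 release genes Unc13c was higher (0.64) and Syt2, a fast calcium sensor, lower (-0.80). The release shares, 3.45% in each direction, lie below the background.

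The WT library allows only a narrow view, since 1177 genes were measured in both libraries. In WT 182 of them were over 1.5-fold higher (15.5%) and 228 lower (19.4%), with the whole interval on that side for only 55 and 34, and in CCI 34 were higher and 33 lower. Past 1.5-fold in the same direction in both libraries were 10 genes higher (0.85%) and 14 lower (1.19%), and 8 were past it in opposite directions. Scaled by the median ratio in place of the total, the counts were 17 higher and 13 lower.

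Among the genes measured in both libraries, seen in at least 5 nuclei of each and open to ranking, 21 had both intervals above 0 and 21 had both below, and the 12 ranked first in each direction are named. All 12 of the higher genes passed 1.5-fold in WT but only 6 in CCI, and of the 12 lower genes 10 and 3 did. Kctd16 (ENSMUSG00000051401), an auxiliary subunit of GABA-B receptors, was at 873 CPM in WT members against 312 CPM in Sst-free nuclei, a log2 ratio of 1.48 (0.70 to 2.29). In CCI the levels were 934 and 515 CPM (0.86, 0.77 to 0.95). It was found in 15 of 18 WT members and 15 of 36 Sst-free nuclei. Kctd8, which encodes a related auxiliary subunit, was at 1.26 in WT (-0.037 with all nuclei thinned to 1000 UMIs) and 0.83 in CCI. The splicing regulator gene Rbfox1 was at 4587 and 2683 CPM in WT (0.77) and 4209 and 3016 CPM in CCI (0.48), with a UMI in all 18 WT members.

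The other genes ranked highest in both were Zfp804b (1.30 in WT and 0.52 in CCI), the potassium channel partner gene Dpp10 (0.80 and 0.57), March1 (1.21 and 0.66), the transmembrane collagen gene Col25a1 (1.47 and 0.87), the phospholipase gene Plcb1 (1.04 and 0.44), the adhesion genes Negr1 (0.68 and 0.47) and Kirrel3 (0.69 and 0.57), the splicing regulator gene Celf2 (0.80 and 0.75) and the postsynaptic scaffold gene Dlgap1 (0.73 and 0.74). In WT the nucleus with the most UMIs held from 13.2% (Plcb1) to 33.3% (Col25a1) of the member UMIs of these 12 genes. Without it their WT ratios lay between 0.33 (Kirrel3) and 1.39 (Kctd16), all above 0.

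Ranked lowest in both were Syt2 (-2.53 in WT, from 2 and 23 UMIs, and -0.80 in CCI), the muscarinic receptor gene Chrm3 (-1.78 and -0.51), Ralyl (-0.75 and -0.58), Lingo2 (-0.60 and -0.41), the adhesion gene Cadm2 (-0.62 and -0.45), Gabrb2, Astn2 (-1.18 and -0.32), the guidance receptor genes Dcc (-0.54 and -0.37) and Robo1 (-0.55 and -0.50), Luzp2 (-0.81 and -0.67), the serotonin receptor gene Htr2c (-0.84 and -0.24) and Mcc (-2.17 and -0.55). Cadm2 was at 2194 CPM in WT members and 3381 CPM in WT Sst-free nuclei, and in CCI at 1776 and 2428 CPM. Under the stricter gate, which leaves few WT nuclei, the WT ratios of Lingo2, Luzp2, Htr2c and Mcc turned to 0.32, 0.69, 1.80 and 0.01, and that of Dlgap1 to -0.16.

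**Figure D5:**
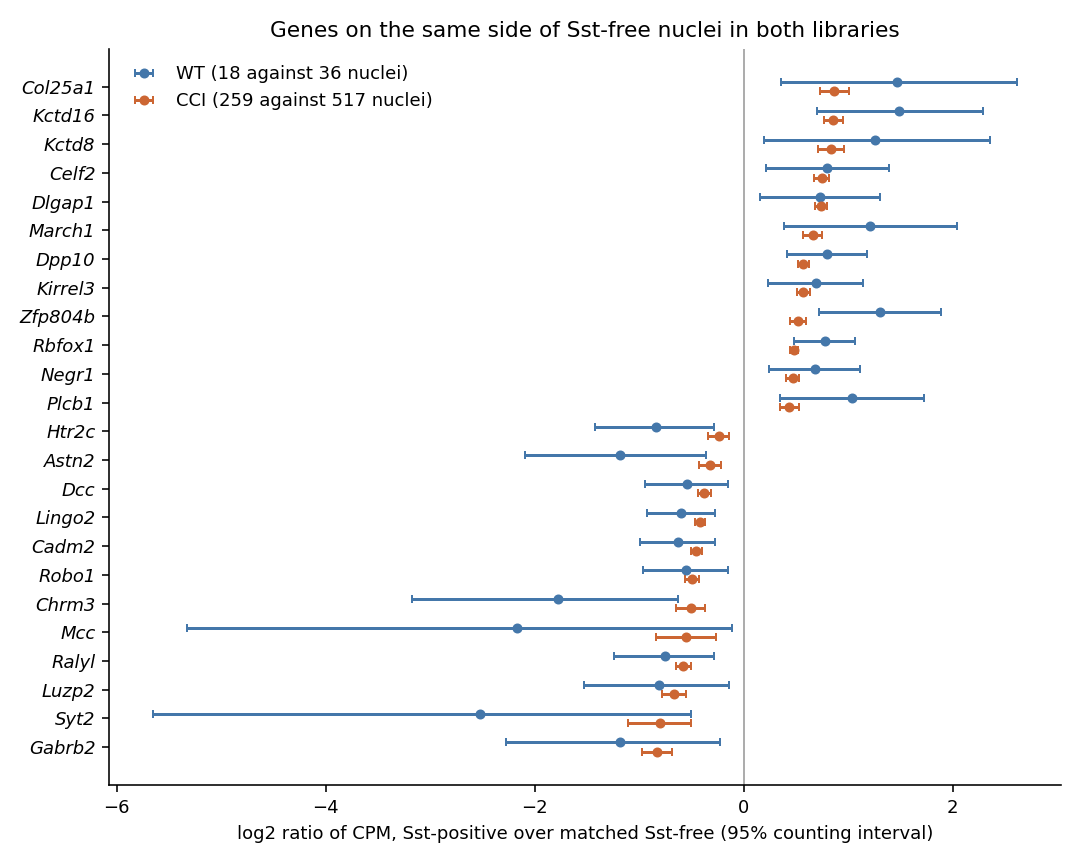
Log2 ratio of CPM, Sst-positive over matched Sst-free nuclei (x axis), in WT and CCI for the 12 genes ranked highest and the 12 ranked lowest in both libraries (y axis), with 95% counting intervals. The WT intervals, from 18 members, are wider than those of CCI, and Kctd16 stands at 1.48 and 0.86.

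The libraries can be compared only as single libraries of unequal depth, and CCI against WT in the members cannot be told apart from library against library. Of 9620 genes measured over the members of both libraries 1206 were over 1.5-fold higher in CCI (12.5%) and 2193 lower (22.8%), with the whole interval on that side for 61 and 214. Of the lower genes 1085 had only 1 or 2 WT UMIs. Another 2652 measured genes had 0 WT UMIs. Among the matched Sst-free nuclei the shares were similar, 14.8% higher and 20.3% lower of 11836 genes.

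Some of the genes highest in CCI members had smaller ratios in Sst-free nuclei, and this difference was not tested. Hs3st4 was at 449 CPM in WT members and 1468 CPM in CCI members, a CCI over WT ratio of 1.71 (1.05 to 2.47), and at 487 and 435 CPM in the Sst-free nuclei (-0.16, -0.62 to 0.34). Galntl6, which encodes a glycosyltransferase of the O-linked family, was at 897 and 2972 CPM in members (1.73, 1.26 to 2.24) and 1585 and 1776 CPM in Sst-free nuclei (0.16). Its exons overlap BC030500. Meis2 was at 150 and 534 CPM in members (1.83, 0.71 to 3.28) and at 0.77 (-0.04 to 1.73) in Sst-free nuclei. Ndst3 (3.25, from 1 WT UMI), Fign (2.79, from 2), Nell2 (2.71, from 2), Dock4 (1.75) and Kcnh7 (1.53) followed. In Sst-free nuclei these stood at 0.55, 1.80, 0.48, 0.29 and 0.67, so that Fign and Kcnh7 were past 1.5-fold there too.

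Among the genes ranked lowest in CCI against WT was Gria1, the AMPA receptor subunit gene (1496 and 536 CPM, -1.48, -1.86 to -1.08). For Gria1 24 of the 60 WT member UMIs came from 1 nucleus, and in Sst-free nuclei its ratio was 0.52 (0.04 to 1.03). Alg13 (-2.46), Wbp1l (-2.30), Zfp91 (-2.19), Serpine2 (-2.07), Dipk1a (-2.05) and Cntnap5c (-1.60) had 6 to 19 WT UMIs each.

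Markers of other cells differed between the libraries, and not always in the same direction in members and Sst-free nuclei. Summed over 11 oligodendrocyte markers, WT members held 1695 CPM and CCI members 624 CPM, against 1984 and 548 CPM in the Sst-free nuclei. The 10 astrocyte markers summed to 274 and 346 CPM in members, the 8 microglial markers to 224 and 130 CPM, and the 13 mitochondrially encoded genes to 3989 and 2649 CPM. In Sst-free nuclei of WT and CCI these lists summed to 237 and 312, 87.3 and 129, and 5440 and 2478 CPM. The microglial list thus ran the other way there, and P2ry12 gave 8 UMIs of its WT member sum. The 9 vascular markers were at 0 in WT members and at 15.2 CPM in CCI members, and at 0 and 12.9 CPM in Sst-free nuclei. The WT depth measures a level of this size poorly. Of the oligodendrocyte markers 2 had 0 UMIs in WT members, of the astrocyte markers 7 and of the microglial markers 6. Within CCI, members and Sst-free nuclei stood at 346 and 312 CPM for the astrocyte list and at 130 and 129 CPM for the microglial list. The part of these transcripts in the differences between libraries was not tested.

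Sst was not limited to the gate. The gate held 10.0% of all Sst UMIs in WT and 36.4% in CCI, and neurons outside it 75.7% and 55.1%. Outside the gate and below the dopaminergic limit lay 123 WT and 430 CCI neurons with Sst, compared with depth-matched Sst-free neurons from outside the gate as well. In CCI these had 1266 Sst UMIs, a UMI of a GABAergic gene in 43.0% against 29.5% of their matched nuclei, and of Slc17a6 in 49.3% against 62.1%. Meis2 was higher with Sst there too, at 266 and 53.3 CPM (2.32, 2.14 to 2.50), as were Npy (1.72), Isl1 (1.31), Six3 (1.32, from 15 and 12 UMIs) and Pax6 (1.29). Pvalb was at 0.45 (-0.69 to 1.55), and Hs3st4 and Fign at 0.47 and 0.35, under 1.5-fold.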

How the data were processed

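Gene by barcode UMI counts of 1 WT and 1 CCI library were used as the authors deposited them, made with Cell Ranger 7.1.0 per the file headers and with mm10 and Seurat named in the submitters' processing notes. The labels name 10x 3' v2 chemistry and single nuclei. The intron setting and annotation are not given in the sources used here. Of 32285 gene IDs, 32235 matched GENCODE vM21 (GRCm38), which gave coordinates. Members, gene lists and alternatives were chosen with earlier results of these data known, so their counts are descriptions.

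UMIs were summed over the nuclei of a set and scaled to counts per 1000000 UMIs (CPM). A gene was measured with at least 20 UMIs over the sets compared and counted as different past 1.5-fold. Intervals of ratios are exact binomial 95% intervals of the UMI split, and shares have exact Clopper-Pearson intervals; both cover counting error only. A group whose count was 0 was set to a floor of 3 counts. With 1 library per group no test was run. The comparison was checked on simulated counts, in which genes with no difference also passed 1.5-fold through counting error, so that a count of genes past 1.5-fold is to be read with the number whose interval lies on that side.

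Genes were named by rule from those with the interval bound farthest from 0: 12 per direction measured in both libraries, 8 per direction in CCI where WT had few UMIs, and 8 per direction for CCI against WT. From each list came its 2 highest and 2 lowest genes and any factor or peptide with at least 10 UMIs in members. The other list genes past 1.5-fold, the receptor and nearly level genes named beside them and the gene pairs were chosen after their values were seen. Mitochondrial, ribosomal protein, sex-linked and unnamed genes were left out of the ranks, and some genes are not reported here.

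Doublets were not removed. Scrublet, in Scanpy 1.11.5, marked 9.20% of WT and 6.63% of CCI barcodes, 1 of 18 and 19 of 259 members, and removing them was an alternative. NumPy 2.4.6, SciPy 1.17.1, pandas 2.3.3 and Matplotlib 3.10.9 were used.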

Additional observations from a re-analysis of the deposited data

Results flagged for a closer look

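Sst was also counted outside the GABAergic gate, in neurons that the comparisons between members and Sst-free nuclei do not use. Its level there was 16.0 CPM in WT and 30.6 CPM in CCI, above the 6.04 and 13.4 CPM of non-neuronal nuclei.

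For 11 genes, all from the gene lists or named above, the ratio of members to Sst-free nuclei pointed opposite ways in CCI and WT. Both intervals lay on their side of 0. The number over all 1177 genes measured in both libraries is not given. The difference between the libraries was not tested. Galntl6 stood at 0.74 in CCI and -0.82 in WT, and Tenm1 at 0.30 and -0.65. The mitochondrially encoded mt-Atp6 was at 0.15 and -0.53. The other 8 were lower in CCI and higher in WT. Among them the glutamate receptor gene Gria1 stood at -0.26 and 1.74 (1.07 in WT without the nucleus that held 40% of its UMIs), and Grik1 at -0.26 and 1.39. The adhesion genes were Cadm1 (-0.30 and 1.25), Cntnap5c (-0.60 and 1.55), Lrrtm4 (-0.20 and 0.32), Nrxn3 (-0.042 and 0.22), Tenm3 (-0.10 and 0.70) and Tenm4 (-0.57 and 0.95).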

How the results depend on the processing

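The log2 ratio of the share of GABAergic nuclei with Sst (1.78) fell to 0.53 with the stricter gate of 4 UMIs and 0.1%, and lay between 1.15 and 2.85 under the other alternatives. Higher in both libraries (10 genes) became 2 with at least 2 Sst UMIs, 45 without depth matching, 75 with all nuclei thinned to 1000 UMIs, 17 with median-ratio scaling, 4 with at least 50 UMIs per gene and 20 with at least 10. Lower in both (14) became 8 with at least 2 Sst UMIs, 9 with the stricter gate, 30 without matching, 42 thinned, 9 with the mean CPM per nucleus, 4 and 23 with at least 50 and 10 UMIs per gene, and 8 without the GABAergic gate, an alternative chosen after seeing the data. Higher in CCI than WT members (1206) became 290, 401 and 2242 with at least 2 Sst UMIs, the stricter gate and no GABAergic gate, and 32 when members were found after thinning. Lower (2193) became 1334 with the stricter gate, 41 after thinning and 1200 with at least 50 UMIs per gene. Changes of sign were recorded only for named genes with a main ratio past 1.5-fold and UMIs in both sets. Other ratios may have changed sign as well. Of the recorded ratios, those that changed sign in CCI under the stricter gate were Pmch (-1.60), Penk (-2.88), Pax7 (-0.77), Chodl (0.82), Sim1 (-0.77) and Scn4b (0.82). Fos (-0.18), Gja1 (0.82), Agt (0.40), Pdgfra (-0.18), Cx3cr1 (-0.30) and Flt1 (0.82) did so too. In WT they were Dlgap1 (-0.16), Lingo2 (0.32), Luzp2 (0.69), Htr2c (1.80) and Mcc (0.0072). Without depth matching Pmch was at -0.58. Thinned to 1000 UMIs, Pmch was at -0.93, Nos1 at -0.020, Adra1b at -0.020, Scn4b at 0.073, Ermn at 0.52, Opalin at -0.93, Gja1 at 0.22 and WT Kctd8 at -0.037. Without the GABAergic gate Hcrt was at 0.79, Pmch at -0.014, Chodl at 0.58, Sim1 at -0.29 and Gja1 at 0.030, and in WT March1 at -0.065, Dlgap1 at -0.066 and Mcc at 0.11. The causes were not tested. No recorded single-gene ratio of CCI over WT members changed sign. Depth limits WT most, where 18 members hold 40114 UMIs. No paired analysis was possible because each group is 1 library.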
